A study of Mus musculus with 15 samples.

Results

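The miRNAs described here are 7 mature miRNAs known from pancreatic islets and neuroendocrine cells: mmu-miR-375-3p, mmu-miR-7a-5p, mmu-miR-7b-5p, mmu-miR-184-3p, mmu-miR-204-5p, mmu-miR-153-3p and mmu-miR-9-5p. The prefix mmu, for mouse, is left out from here on. They were taken by name from a table of 1915 mature mouse miRNAs, of which 867 had a count and 351 passed a filter on low counts. All 7 passed it. The libraries were small RNA libraries of pancreatic acini of C57BL/6 mice aged 7 to 8 weeks, and there were 15, in 5 groups of 3. Acini are the clusters of exocrine cells that make digestive enzymes. The groups were acini given caerulein at 100 nM, which the labels call a pathological dose, caerulein at 100 pM, called a physiological dose, TLC-S at 250 uM, TLC-S at 62.5 uM, and control acini without drug. Caerulein is a peptide that acts on the cholecystokinin receptor of acinar cells, and TLC-S is a bile acid sulfate; either is used to model acute pancreatitis. No treatment time is given in the sources used here. The labels speak of pooled RNA from independent acinar preparations and do not say which preparations a library holds, so each p-value measures how far libraries differ, and part of that may be technical.

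A miRNA is cut as a short duplex from a hairpin precursor, and 1 strand, called an arm, is usually kept by an Argonaute protein; bases 2 to 8 of that strand, the seed, pair with target transcripts. In mouse islets miR-375 is an abundant miRNA that restrains insulin secretion and maintains alpha and beta cell mass. The miR-7 family is enriched in islets and brain and limits insulin secretion and beta cell growth. In rodent beta cells miR-184 restrains compensatory growth, miR-204 acts on the insulin gene regulator MafA, and miR-9 acts on Onecut2 and, through it, on exocytosis. The gene of miR-153 lies within a gene for a dense-core vesicle protein.

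The mature sequences below show which members can share targets and which reads could be counted for a close relative. They are from RefSeq (GRCm38.p6), which matched 6 of the 7 members, and the capitals mark the seed.
miR-7a-5p: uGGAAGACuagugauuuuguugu
miR-7b-5p: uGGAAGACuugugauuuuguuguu
miR-184-3p: uGGACGGAgaacugauaagggu
miR-204-5p: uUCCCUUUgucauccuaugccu
miR-153-3p: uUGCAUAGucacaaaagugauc
miR-9-5p: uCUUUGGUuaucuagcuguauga

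These 6 sequences held 5 seeds, since miR-7a-5p and miR-7b-5p share theirs. Counted from the 5′ end of miR-7a-5p, that pair differed by the substitution A10U and by 1 base of length, 23 bases in miR-7a-5p and 24 in miR-7b-5p. The seed of miR-204-5p is also that of miR-211-5p, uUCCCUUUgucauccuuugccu, which is shown because 1 substitution, A17U, is all that separates it from miR-204-5p. The deposited counts gave miR-211-5p 7 counts in all 15 libraries together.

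In the GENCODE M21 annotation of GRCm38, Mir375 lay between genes, 1350 bp from Cfap65, the nearest protein-coding gene. Its hairpin in RefSeq is at chr1:74900658-74900721 on the minus strand and reads, with the 5p arm in capitals, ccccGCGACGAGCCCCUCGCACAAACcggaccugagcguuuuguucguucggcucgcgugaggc. It is shown because this hairpin gives the most abundant of the 7 miRNAs, and the arm in capitals was never counted. Among the members, 3 had a precursor in an intron of a protein-coding gene: Mir7-1 (chr13:58392779-58392886, minus strand) in Hnrnpk, Mir204 (chr19:22750605-22750672, plus strand) in Trpm3, and Mir153 (chr12:117250817-117250885, plus strand) in Ptprn2. Hnrnpk codes for an RNA-binding protein of most cells, Trpm3 for a cation channel, and Ptprn2 for the dense-core vesicle protein named above. The other precursor of miR-7a-5p, Mir7-2 (chr7:78888277-78888373, plus strand), was intergenic, as were Mir7b (chr17:56242988-56243098, plus strand) and Mir184 (chr9:89802260-89802328, minus strand). The 3 precursors of miR-9-5p lay in long non-coding RNA genes, 1 of them, Mir9-2 (chr13:83738814-83738885), in an exon.

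By counts, miR-375-3p was among the most abundant miRNAs of these acini, and the other 6 ranked between 14 and 250 of the 867 with a count. Its mean share of the counts, 10.1% ± 2.23 (SD, n = 15), ranked 2 of the 867 miRNAs with a count. miR-7a-5p ranked 14 with 1.34% of the counts. miR-7b-5p ranked 80 with 0.0529%, and miR-184-3p ranked 105 with 0.0235%. The ranks of miR-9-5p, miR-153-3p and miR-204-5p were 161, 232 and 250. Together the 7 miRNAs took 5.86% to 14.9% of a library, and miR-375-3p made up 83.8% to 91.5% of that sum.

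On the scale of CPM (counts scaled to a common library total) after TMM scaling between libraries, the levels over the 15 libraries averaged 99986 ± 16044 for miR-375-3p, 13318 ± 3133 for miR-7a-5p and 520 ± 199 for miR-7b-5p (SD, n = 15 each). They averaged 235 ± 86.5 for miR-184-3p, 63.1 ± 14.0 for miR-9-5p, 20.1 ± 7.30 for miR-153-3p and 14.6 ± 6.74 for miR-204-5p. The sequences are of nearly equal length, so no division by length was made. The order is one of read counts, and whether different sequences were captured equally was not tested. Within a library, each member exceeded the next of this order in 15 of 15 libraries, except that miR-153-3p exceeded miR-204-5p in 11 of 15. The ratio of the means of that last pair was 1.38, and their levels overlapped widely. The ranges of miR-7b-5p and miR-184-3p also overlapped between libraries, although miR-7b-5p was higher in each library, with a ratio of means of 2.22. The lowest level of miR-9-5p and the highest of miR-153-3p were both 33.8 CPM.

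**Figure D1:**
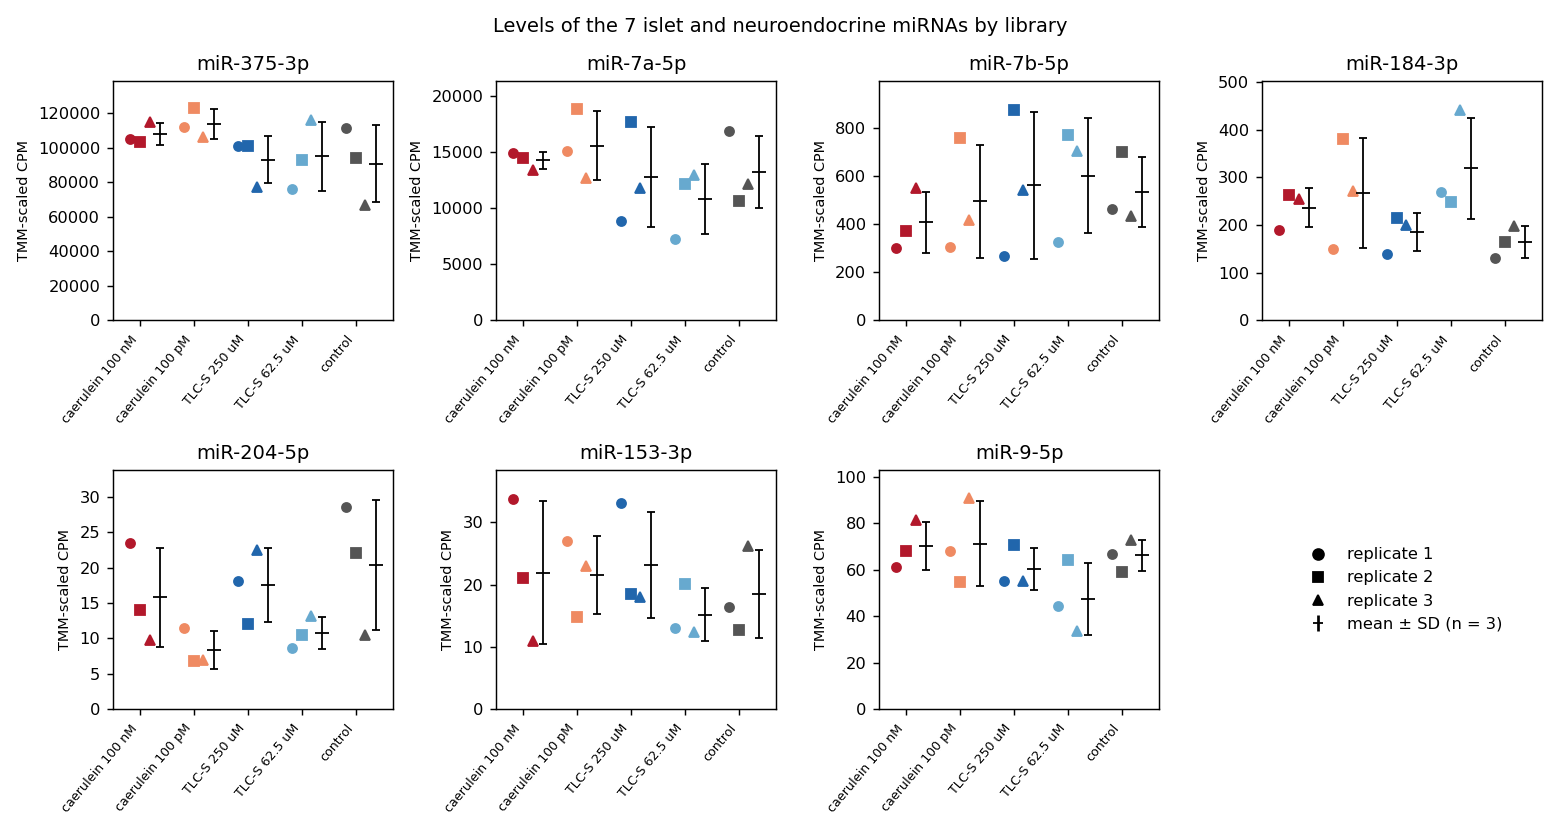
TMM-scaled CPM of the 7 miRNAs on linear axes that start at 0, with 1 point per library, shaped by replicate, and the mean ± SD of each group of 3. The treated groups overlap the control range, with 1 exception: for miR-184-3p the 3 libraries of TLC-S 62.5 uM lie between 248 and 441 CPM, above the control libraries at 130 to 199 CPM.

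The labelled tissue was checked against 4 miRNAs known from acinar cells, miR-148a-3p, miR-216a-5p, miR-216b-5p and miR-217-5p, which together took 26.6% to 57.9% of a library. Markers of epithelium (the miR-200 family) took 6.23% to 12.0%, of mesenchyme 0.854% to 1.97%, and of endothelium 0.363% to 0.839%. Those of leukocytes took 0.00355% to 0.0111% and those of erythrocytes 0.00657% to 0.0187%. No marker on these lists was at 0 in all 15 libraries. The tables hold miRNAs only, so the cells that the 7 miRNAs came from were not tested here. In such bulk RNA, fewer cells of a type and less RNA per cell cannot be told apart.

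Libraries differed in their totals, between 535473 counts (caerulein 100 nM replicate 2) and 5087728 counts (caerulein 100 nM replicate 3), and in the share of miR-148a-3p, the most abundant acinar miRNA, between 17.6% and 50.5%. Control replicate 3 had the highest share of miR-148a-3p, 50.5%, and TLC-S 250 uM replicate 3 had 42.7%. Values without single libraries are therefore given where a result moves with one.

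The question put to the treated groups was whether the secretagogue or the bile acid changed the islet and neuroendocrine miRNAs of the preparation, by dose. Among the 7 miRNAs, 0 were called in each of the 6 comparisons of groups and in the F test over the 5 groups (edgeR quasi-likelihood test, Benjamini-Hochberg adjusted p under 0.05 over 351 miRNAs). The 42 adjusted p-values of the members lay between 0.229 and 0.999. Without adjustment, 4 of the 42 were under 0.05: miR-184-3p in 3 comparisons and miR-204-5p in 1. In the F test, miR-184-3p had the smallest p of the members, 0.0325 (adjusted p = 0.548). An unadjusted p under 0.05 in that test was found for 1 of the 7 members and for 7.41% of the 351 miRNAs. DESeq2 also called 0 of the 7 in each comparison.

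The background was low as well. The shares of the 351 miRNAs called were 0% for caerulein 100 nM against control, 0% for caerulein 100 pM against control, 0% for TLC-S 250 uM against control and 0.57% for TLC-S 62.5 uM against control. They were 0% between the caerulein doses, 1.14% between the TLC-S doses and 0.855% in the F test. The member count of 0 of 7 stands near these shares in every comparison. An unadjusted p under 0.05 was found for 2 of the 7 members and 6.84% of the 351 miRNAs with caerulein 100 pM against control, for 1 member and 7.41% with TLC-S 62.5 uM against control, and for 1 member and 8.83% between the TLC-S doses. With 0 members an unadjusted p under 0.05 was found for 3.42% with caerulein 100 nM against control, 1.14% with TLC-S 250 uM against control and 1.71% between the caerulein doses. Groups did not overlap for 1 of 7 members and 12.3% of the miRNAs with TLC-S 62.5 uM against control, and for 1 of 7 and 12% between the TLC-S doses. They did not overlap for 0 of 7 members and 6.55% of the miRNAs with caerulein 100 nM against control, 10.3% with caerulein 100 pM against control, 7.12% with TLC-S 250 uM against control and 5.7% between the caerulein doses.

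miR-375-3p, the islet miRNA that restrains insulin secretion, took 11%, 11% and 12.0% of the counts with caerulein 100 nM and 11.2%, 9.45% and 8.43% with caerulein 100 pM. It took 10.9%, 11.5% and 6.97% with TLC-S 250 uM, 7.93%, 10.1% and 13.2% with TLC-S 62.5 uM, and 12.4%, 11.1% and 4.91% in control acini. Control replicate 3 was the lowest of the 15 and TLC-S 62.5 uM replicate 3 the highest, and the control libraries differed among themselves by more than any 2 group means. The group means were 11.3% ± 0.572 with caerulein 100 nM, 9.69% ± 1.39 with caerulein 100 pM, 9.78% ± 2.44 with TLC-S 250 uM, 10.4% ± 2.67 with TLC-S 62.5 uM and 9.48% ± 4.01 in control acini (SD, n = 3 each).

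The library with the lowest share of miR-375-3p was also the one with the highest share of miR-148a-3p. As a share of the counts other than miR-148a-3p, miR-375-3p took 13.9% ± 1.79 (SD, n = 15), with 9.93% in control replicate 3, still the lowest, and 16.9% in TLC-S 62.5 uM replicate 3. The part of miR-148a-3p in the spread was not tested.

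**Figure D2:**
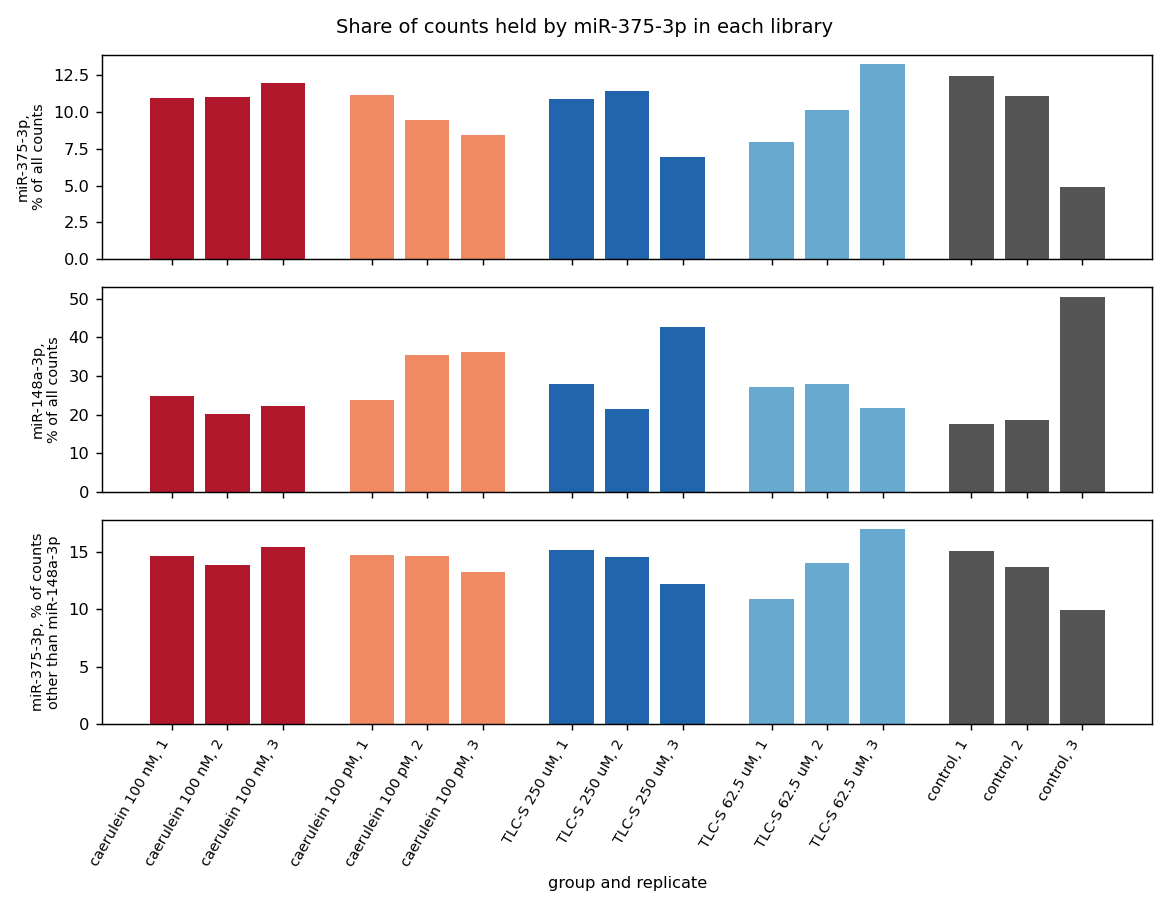
Percent of all counts held by miR-375-3p (top) and by miR-148a-3p (middle), and percent of the counts other than miR-148a-3p held by miR-375-3p (bottom), with 1 bar per library and axes from 0. miR-375-3p spans 4.91% to 13.2%, and its lowest bar, control replicate 3, stands over the highest bar of miR-148a-3p, 50.5%.

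After TMM scaling, miR-375-3p was at 104935, 103345 and 114887 CPM with caerulein 100 nM and at 111864, 123034 and 106196 CPM with caerulein 100 pM. It was at 100712, 100682 and 77434 CPM with TLC-S 250 uM, at 76203, 92955 and 115754 CPM with TLC-S 62.5 uM, and at 111218, 93698 and 66877 CPM in control acini. The control group had the widest spread of the 5 and overlapped each treated group. The log2 differences from control were 0.25 with caerulein 100 nM, 0.33 with caerulein 100 pM, 0.04 with TLC-S 250 uM and 0.07 with TLC-S 62.5 uM, each with an SE of 0.221 and an adjusted p of at least 0.942. Over these 4, which share the control libraries, the 95% intervals ran from 0.749-fold to 1.72-fold of the control level.

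The miR-7 pair differed in level, with a ratio of means of 25.6, and in how steady it was. miR-7a-5p was at 14908, 14482 and 13419 CPM with caerulein 100 nM, 15114, 18795 and 12726 with caerulein 100 pM, 8882, 17635 and 11818 with TLC-S 250 uM, 7209, 12177 and 12937 with TLC-S 62.5 uM, and 16826, 10666 and 12181 in control acini. Its log2 differences from control lay between -0.30 and 0.23, and each treated group overlapped the control libraries. miR-7b-5p was at 300, 373 and 550 CPM with caerulein 100 nM, 306, 760 and 418 with caerulein 100 pM, 266, 874 and 544 with TLC-S 250 uM, 327, 773 and 706 with TLC-S 62.5 uM, and 465, 700 and 433 in control acini. Replicate 1 was the lowest library of miR-7b-5p in each treated group, and its log2 differences from control, -0.38 to 0.18, were smaller than that spread.

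The replicates came in 3 runs of sample codes, each with 1 library of every group, and the labels do not say what a run is. Of the sum of squares of log2 CPM of miR-7b-5p, 62.0% lay between runs and 10.4% between groups, against medians of 16.8% and 26.6% over the 351 miRNAs. Its median level was 306 CPM in the run of replicate 1, 760 CPM in that of replicate 2 and 544 CPM in that of replicate 3. The share of miR-7b-5p in the summed counts of miR-7a-5p and miR-7b-5p had medians of 2.69%, 4.72% and 3.94% in these runs and spanned 1.97% to 6.16% over the 15 libraries. The other members had 2.36% (miR-9-5p) to 32.3% (miR-184-3p) of their sum of squares between runs. By chance alone 5 groups take a larger share than 3 runs, so group shares and run shares are not directly comparable.

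**Figure D3:**
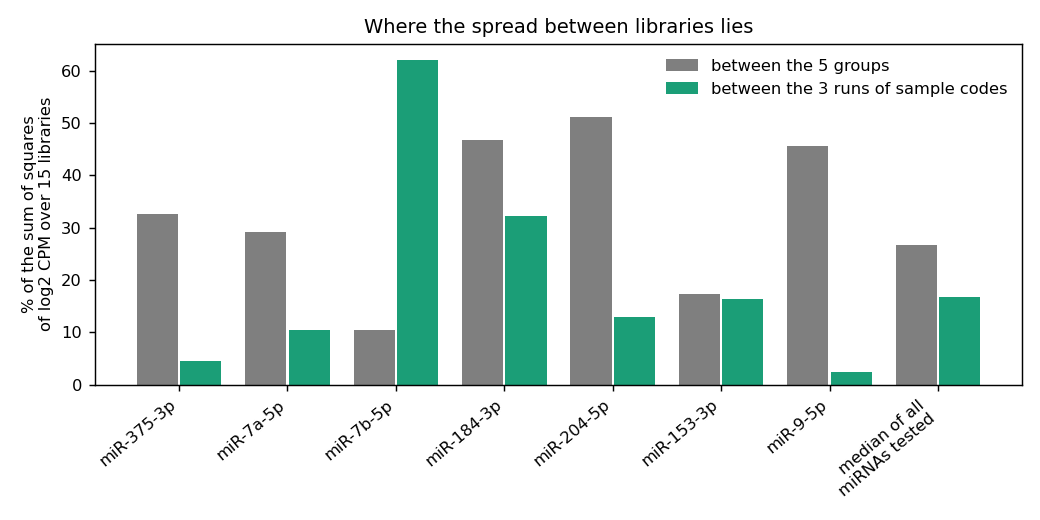
Percent of the sum of squares of log2 CPM over the 15 libraries that lies between the 5 groups (grey) and between the 3 runs of sample codes (green), for each of the 7 miRNAs and as the median of the 351 tested. miR-7b-5p stands out with 62.0% between runs, while the green bars of miR-375-3p (4.55%) and miR-9-5p (2.36%) are below the median of 16.8%.

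Measured against all miRNAs, miR-375-3p was steady: the SD of its log2 CPM over the 15 libraries was 0.251, rank 29 of 351 from the steadiest. miR-9-5p had 0.346 (rank 98) and miR-7a-5p 0.366 (rank 111). miR-184-3p had 0.50, miR-153-3p 0.510, miR-7b-5p 0.563 and miR-204-5p 0.638 (rank 252), all above the median of 0.461. This SD includes counting error, which is larger at low counts. The median level of the 351 miRNAs was 45.9 CPM, so the ranks do not compare miRNAs of equal abundance.

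miR-184-3p, the beta cell growth miRNA, was the member nearest to the threshold. It was at 191, 264 and 255 CPM with caerulein 100 nM and at 150, 381 and 271 CPM with caerulein 100 pM. It was at 139, 214 and 200 CPM with TLC-S 250 uM, at 269, 248 and 441 CPM with TLC-S 62.5 uM, and at 130, 166 and 199 CPM in control acini. All 3 libraries of TLC-S 62.5 uM were above the 3 control libraries; the other treated groups overlapped them.

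The log2 difference of TLC-S 62.5 uM and control was 0.95 (SE 0.311, 95% interval 0.31 to 1.59), with 319 ± 106 CPM against 165 ± 34.2 CPM (SD, n = 3 each), and the adjusted p was 0.229. miR-184-3p was 1 of 22 miRNAs, 6.27% of the 351, whose libraries were all higher than control in this comparison. Without TLC-S 62.5 uM replicate 3, the highest library, the difference was 0.59 (adjusted p = 0.554). Beside it, the summed acinar markers took 33.5% to 36.0% with TLC-S 62.5 uM and 26.6% to 57.9% in control acini. The mesenchymal markers took 1.14% to 1.66% and 0.903% to 1.48% in these groups, and the erythrocyte markers 0.0126% to 0.0187% and 0.00962% to 0.0141%. The endothelial markers took 0.478% to 0.695% with TLC-S 62.5 uM and 0.626% to 0.839% in control acini, the leukocyte markers 0.00583% to 0.00714% and 0.00390% to 0.00847%, and the epithelial markers 8.45% to 12.0% and 6.23% to 11.9%. Of these lists, the 2 endothelial and the 4 acinar markers all had a negative log2 difference (medians -0.50 and -0.41) and the 5 mesenchymal markers a positive one (median 0.13); 0 were called. Their part in the result was not tested.

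For caerulein 100 pM against control, miR-184-3p differed by 0.70 (SE 0.311, interval 0.06 to 1.34; adjusted p = 0.722), and without caerulein 100 pM replicate 2 by 0.29 (adjusted p = 1.00). For caerulein 100 nM it differed by 0.52 (SE 0.311, interval -0.12 to 1.16) and for TLC-S 250 uM by 0.16. The 4 differences were positive, and they share the control libraries. Between the TLC-S doses, miR-184-3p had 185 ± 39.8 CPM at 250 uM and 319 ± 106 CPM at 62.5 uM (SD, n = 3 each), a log2 difference of -0.79 (SE 0.310, interval -1.42 to -0.15; adjusted p = 0.451). The libraries of these doses did not overlap, which held for 21 miRNAs in this direction, 5.98% of the 351. Without TLC-S 62.5 uM replicate 3 the difference was -0.42 (adjusted p = 0.659).

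miR-204-5p, the MafA regulator encoded within Trpm3, had its highest level in a control library and rested on 6 to 62 counts per library. It was at 23.5, 14.0 and 9.79 CPM with caerulein 100 nM, at 11.5, 6.77 and 6.89 CPM with caerulein 100 pM, and at 18.1, 12.1 and 22.4 CPM with TLC-S 250 uM. It was at 8.69, 10.5 and 13.1 CPM with TLC-S 62.5 uM, and at 28.6, 22.1 and 10.5 CPM in control acini. Control replicate 3 was well below the other control libraries, and each treated group overlapped the control range.

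The log2 difference of miR-204-5p for caerulein 100 pM against control was -1.25 (SE 0.479, interval -2.24 to -0.27; adjusted p = 0.722), with 8.38 ± 2.68 CPM against 20.4 ± 9.15 CPM (SD, n = 3 each). It was -0.92 without control replicate 1 and -1.54 without control replicate 3. For TLC-S 62.5 uM against control it was -0.93 (SE 0.456, adjusted p = 0.669), for caerulein 100 nM -0.38 and for TLC-S 250 uM -0.20. Between the caerulein doses, 100 nM against 100 pM, it was 0.87 (SE 0.492, adjusted p = 0.986), and between the TLC-S doses, 250 uM against 62.5 uM, 0.73 (SE 0.462).

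The remaining pair showed less. miR-153-3p, from the intron of Ptprn2, ranged from 10.9 CPM to 33.8 CPM over the 15 libraries, and its lowest and highest library were in 1 group, caerulein 100 nM. Its log2 differences from control were 0.23 with caerulein 100 nM, 0.22 with caerulein 100 pM, 0.31 with TLC-S 250 uM and -0.26 with TLC-S 62.5 uM, with intervals that reached a median of 0.91 to either side. miR-9-5p, the neural miRNA that acts on Onecut2, ranged from 33.8 CPM (TLC-S 62.5 uM replicate 3) to 90.8 CPM (caerulein 100 pM replicate 3). It had 47.5 ± 15.5 CPM with TLC-S 62.5 uM against 66.2 ± 6.81 CPM in control acini (SD, n = 3 each), a log2 difference of -0.47 (SE 0.290, adjusted p = 0.794).

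Between the doses of either agent the libraries of each member overlapped, except for miR-184-3p between the TLC-S doses. For caerulein, 100 nM against 100 pM, the log2 difference was -0.08 for miR-375-3p, -0.12 for miR-7a-5p and -0.28 for miR-7b-5p. For TLC-S, 250 uM against 62.5 uM, it was -0.03 for miR-375-3p, 0.25 for miR-7a-5p, -0.10 for miR-7b-5p, 0.58 for miR-153-3p and 0.33 for miR-9-5p. Each of these 8 differences was smaller than 2 times its SE.

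**Figure D4:**
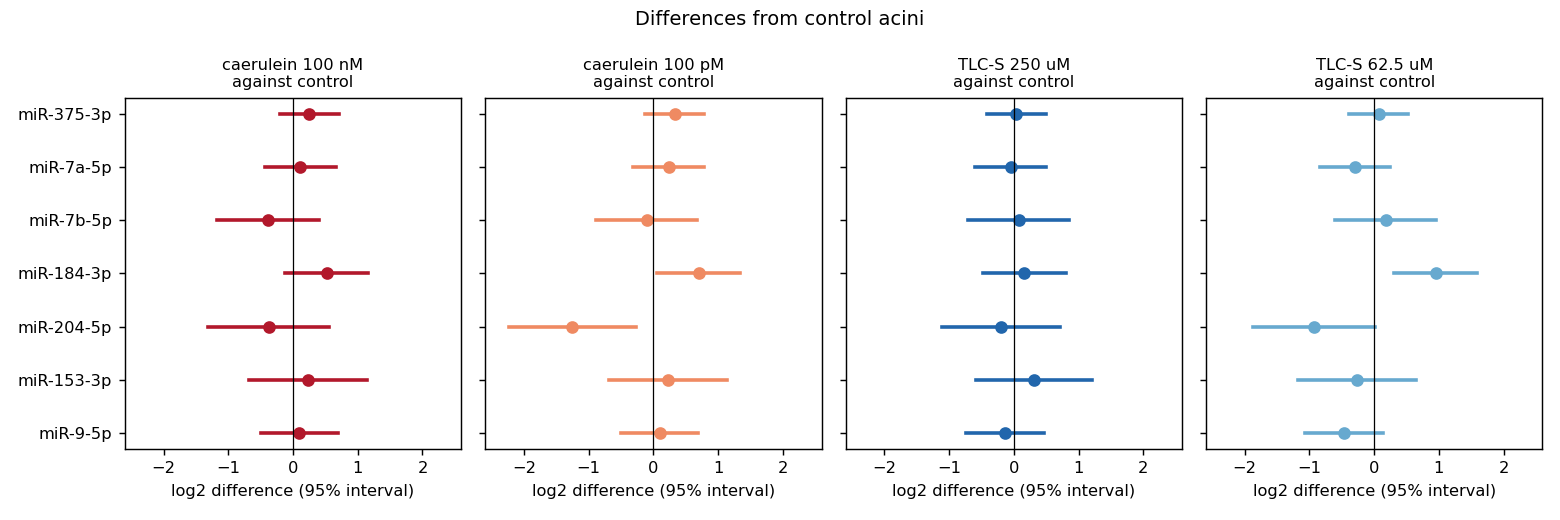
Log2 difference of each of the 7 miRNAs from control, with its 95% interval from the edgeR fit, in a panel per treated group, by agent and then by dose; the vertical line marks no difference. The intervals of miR-184-3p (0.95 for TLC-S 62.5 uM and 0.70 for caerulein 100 pM) and of miR-204-5p (-1.25 for caerulein 100 pM) leave out 0 before adjustment, and those of miR-375-3p are the narrowest.

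As a group, the 7 miRNAs had no common direction. Their log2 difference was positive for 5 of 7 with caerulein 100 nM (median 0.11), 5 of 7 with caerulein 100 pM (0.22), 4 of 7 with TLC-S 250 uM (0.04) and 3 of 7 with TLC-S 62.5 uM (-0.26), each against control. Over the 351 miRNAs the medians were 0.03, 0.01, -0.03 and -0.01 in the same 4 comparisons. Between the doses, 2 of 7 were higher with caerulein 100 nM than with 100 pM (median -0.08, against -0.02 over all) and 4 of 7 with TLC-S 250 uM than with 62.5 uM (0.25, against 0.01 over all). The precision of the differences from control varied among them: the unadjusted 95% interval reached a median of 0.45 to either side for miR-375-3p, 0.55 for miR-7a-5p, 0.60 for miR-9-5p, 0.64 for miR-184-3p, 0.78 for miR-7b-5p and 0.93 for miR-204-5p. A call also had to pass the adjustment over the 351 miRNAs, so a difference larger than these widths could go uncalled.

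The opposite arms of the hairpins were rarely counted. miR-375-5p, miR-7b-3p, miR-184-5p and miR-153-5p had 0 of 30641589 counts over the 15 libraries, which allows up to 0.0979 CPM, and miR-204-3p had 1 count. miR-9-3p had 56 counts, and it was tested and not called. The precursors of miR-7a-5p give an identical 5p arm and differ in the 3p arm, so the 3p arms are shown with the 3 bases that differ in capitals.
miR-7a-1-3p: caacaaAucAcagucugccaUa
miR-7a-2-3p: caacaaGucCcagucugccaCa

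miR-7a-1-3p had 351 counts and miR-7a-2-3p 9 counts, so 97.5% of the 3p counts carried the bases of Mir7-1 (Wilson 95% interval 95.3% to 98.7%, counting error only), and it was the higher of the pair in 15 of 15 libraries. The deposited estimates give the Mir7-1 precursor 50.3% to 50.6% of miR-7a-5p, whose sequence cannot separate the precursors. Each of the 3 precursors of miR-9-5p was given 33.3% in the same way. Counts of miR-7a-1-3p came to 0.0872% of those of miR-7a-5p and were tested, with no call.

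Of 12 other neuronal and neuroendocrine miRNAs taken as a comparison list, 9 were tested and 0 passed in any comparison. The most abundant were the sensory-cell cluster miR-182-5p, miR-183-5p and miR-96-5p, at means of 3621, 2487 and 919 CPM over the 15 libraries, followed by miR-218-5p, known from motor neurons, at 279 CPM. miR-124-3p, the most abundant miRNA of neurons, had 3 counts in all 15 libraries together, and miR-137-3p had 10. miR-182-5p had 4989 CPM with caerulein 100 pM against 2979 CPM in control acini, a log2 difference of 0.74 (SE 0.273, adjusted p = 0.722). miR-218-5p had 221 CPM with TLC-S 250 uM against 386 CPM with TLC-S 62.5 uM, a log2 difference of -0.80 (SE 0.301, adjusted p = 0.362), and like miR-184-3p its libraries of these doses did not overlap. The list had no common direction between these doses, with 5 of 9 positive, 4 negative and a highest log2 difference of 1.69. miR-129-5p went the other way, with 9.10 CPM at 250 uM against 2.71 CPM at 62.5 uM, on 2 to 32 counts per library in these groups. Its libraries overlapped, with a lowest level of 2.36 CPM at 250 uM and a highest of 4.82 CPM at 62.5 uM. The list had a positive difference from control in 5 of 9 with caerulein 100 nM, 6 of 9 with caerulein 100 pM, 4 of 9 with TLC-S 250 uM and 2 of 9 with TLC-S 62.5 uM.

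Likeness of pattern was described by the SD of the log2 ratio of a pair of miRNAs over the 15 libraries. A small SD means that their ratio stayed nearly constant. A pair of miRNAs that are each steady also gives a small SD, without moving together. miR-375-3p was most like let-7i-5p (0.175), miR-652-3p (0.188) and miR-328-3p (0.200), against a median of 0.509 over the other miRNAs tested. miR-7a-5p was most like let-7d-3p (0.198), miR-16-1-3p (0.234) and miR-183-5p (0.249). miR-7b-5p was most like miR-143-3p (0.317), which is on the mesenchymal list, miR-127-3p (0.354) and miR-136-3p (0.380), so its partner in sequence, miR-7a-5p, was not among its 3 closest. miR-184-3p was most like miR-146a-5p (0.356), miR-3535 (0.357) and miR-145a-3p (0.363).

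Of the members with few counts, miR-153-3p was most like miR-664-3p (0.336), miR-96-5p (0.352) and let-7d-5p (0.352), and miR-9-5p most like miR-374b-5p (0.259), let-7g-5p (0.279) and miR-21a-5p (0.290). miR-204-5p was most like miR-138-5p (0.463), miR-362-5p (0.514) and miR-181c-5p (0.515), the weakest likeness of the 7. None of the 7 was among the 3 closest of another. These values share libraries, and with them the depth that sets counting error, and are given as a description.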

How the data were processed

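Small RNA libraries of mouse pancreatic acini were analysed from the deposited tables. The submitters' processing notes name cutadapt and Bowtie, and GRCm38 and mm10 as builds, with no version and no counting tool. The authors deposited estimated counts (expected counts), whole in the table of mature miRNAs and within 0.5 of the sums of the fractional table per precursor. Rounded values were used as counts. Before rounding, values of miR-375-3p, miR-184-3p and miR-153-3p were whole, whereas 23 of 30 of miR-7a-5p, 33 of 45 of miR-9-5p, 12 of 15 of miR-7b-5p and 3 of 15 of miR-204-5p were fractional; miR-7b-5p and miR-204-5p have 1 precursor, so their counts may hold reads shared with a relative, which was not tested. The authors also deposited RPM values, which are the estimated counts per precursor scaled to a common total (gap up to 0.0313); they served as a check.

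All 15 libraries, in groups from their titles, entered edgeR 4.0.16 (R 4.3.3): TMM, filterByExpr (minimum count 10, minimum total 15), 1 mean per group, glmQLFTest, Benjamini-Hochberg over 351 miRNAs, threshold 0.05. The SE of a log2 difference was derived from the F statistic. The script was tested on simulated data. Alternatives were RLE scaling, library totals, removal of miR-148a-3p, other filters, DESeq2 1.42.0, a replicate block, fits of the 2 groups compared and leaving out each library in turn. Likeness added 0.5 to counts. The members, lists and the naming rule (all members, their other arms and paralogs, abundant list members and the 3 most alike miRNAs) were chosen with earlier results of these data known. Intervals on counts cover counting error only.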

Additional observations from a re-analysis of the deposited data

How the results depend on the processing

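The 7 reported tests each called 0 members. With each test counted once under each alternative setting, 159 of 160 such counts were also 0. Many of these settings leave out a library, which makes a call harder, so they probe a count of 0 only weakly. The exception was the replicate block for TLC-S 62.5 uM against control, where 1 member was called: miR-184-3p, with a log2 difference of 0.96 (SE 0.245, adjusted p = 0.0480 in edgeR's quasi-likelihood test) and 5 of 351 miRNAs called. Over all alternatives its adjusted p lay between 0.0480 and 0.609. In no comparison did all 3 same-numbered pairs of libraries deviate together with a correlation over 0.1. Correlations ran from -0.077 to 0.36 over 18 pairs, of which 8 were over 0.1. Between the TLC-S doses all 3 were positive, from 0.070 to 0.20. Of the 18, 10 matched their own number best among the 3 libraries of the other group. With so few pairs these correlations cannot decide whether the numbers pair the libraries, and the labels do not say. The reported fit had no block for that reason, and the call of miR-184-3p depends on this choice. Over all miRNAs, the counts called over the alternatives lay between 0 and 5 for TLC-S 62.5 uM against control (2 as reported), between 1 and 4 between the TLC-S doses (4 as reported) and between 1 and 10 in the F test (3 as reported). DESeq2 called 1 for caerulein 100 nM against control, where 0 were reported. The share of miR-375-3p was 13.9% without miR-148a-3p.

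Of 966 alternative values of member differences, 905 kept their direction and side of the threshold and 60 changed sign, 45 of them on leaving out a library; the cause was not tested. With library totals as the scale, the median of all miRNAs moved by -0.24 for caerulein 100 pM against control and by 0.29 between the caerulein doses. In these, miR-7a-5p and miR-9-5p turned to -0.027 and -0.12 against control, and between the doses miR-375-3p, miR-7a-5p, miR-7b-5p, miR-184-3p and miR-9-5p turned to 0.23, 0.18, 0.073, 0.18 and 0.29. With the 2 groups alone miR-7a-5p turned to 0.030 for TLC-S 250 uM against control. With the replicate block miR-7b-5p turned to -0.057 there and miR-153-3p to -0.049 between the caerulein doses. For miR-9-5p between the caerulein doses, RLE scaling gave 0.011, no filter 0.041, a mean CPM of at least 10 gave 0.025, DESeq2 0.018 and the 2 groups alone 0.034.

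Leaving out each library in turn, the log2 differences that changed sign are given by their lowest and highest value. For caerulein 100 nM against control these ranges were -0.33 to 0.61 for miR-153-3p, -0.0014 to 0.35 for miR-7a-5p, -0.041 to 0.21 for miR-9-5p. For caerulein 100 pM against control these ranges were -0.0097 to 0.58 for miR-153-3p, -0.62 to 0.20 for miR-7b-5p, -0.089 to 0.20 for miR-9-5p. For TLC-S 250 uM against control these ranges were -0.50 to 0.16 for miR-204-5p, -0.13 to 0.25 for miR-375-3p, -0.31 to 0.21 for miR-7a-5p, -0.34 to 0.46 for miR-7b-5p. For TLC-S 62.5 uM against control these ranges were -0.53 to 0.090 for miR-153-3p, -0.15 to 0.27 for miR-375-3p, -0.025 to 0.49 for miR-7b-5p. Between the caerulein doses these ranges were -0.51 to 0.42 for miR-153-3p, -0.49 to 0.24 for miR-184-3p, -0.12 to 0.049 for miR-375-3p, -0.24 to 0.10 for miR-7a-5p, -0.56 to 0.25 for miR-7b-5p, -0.11 to 0.21 for miR-9-5p. Between the TLC-S doses these ranges were -0.18 to 0.18 for miR-375-3p, -0.045 to 0.49 for miR-7a-5p, -0.54 to 0.28 for miR-7b-5p.

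The widest intervals were those of the members with the fewest counts. miR-204-5p rested on 6 to 62 counts and miR-153-3p on 12 to 69 counts per library, and their differences were estimated least precisely. Width did not follow counts throughout, since the interval of miR-7b-5p was wider than that of miR-9-5p, which had fewer counts.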
